A study of Mus musculus with 47 samples.

Results

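Granulocyte-monocyte progenitors (GMP, 3 arrays) were compared with megakaryocyte-erythroid progenitors (MkE, 4 arrays), both purified from bone marrow of adult C57Bl6 mice, by the level of every gene on Affymetrix expression arrays. The arrays were taken as those whose label begins with exactly GMP or MkE, 7 of the 47 arrays of the series, which covers 17 groups. The labels name no treatment or altered allele for any group, and each array was made from RNA of 2000 cells that was amplified before hybridization. The labels use the short names, whose usual meaning is given here, and give no sorting markers, age in weeks, sex or batch, and they do not say whether animals were pooled. The arrays of a group are labelled as biological replicates with no animal named, so the spread behind every p-value is that between arrays. The labelled GM arrays (2) and PreCFUE arrays (3) were used for a second difference, and the labels do not say that they belong to the same lineages.

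Red cells, platelets, neutrophils and macrophages all descend from multipotent cells of the marrow that pass through such progenitors. MkE cells give rise to red cells and to megakaryocytes, which shed platelets, and their programme is built by the DNA-binding factors Gata1, Tal1 and Klf1. GMP cells give rise to neutrophils and monocytes, depend on the factors PU.1 (gene Spi1) and C/EBP alpha (gene Cebpa), and begin to make the enzymes that fill the first, azurophilic granules of neutrophils.

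Levels are log2 of the deposited intensity. A difference is the GMP mean minus the MkE mean on this scale, ± its standard error in a limma model of the 47 arrays (30 residual degrees of freedom), with p-values adjusted after Benjamini and Hochberg over the 13949 genes tested. A gene was called at an adjusted p under 0.05 and at least 2-fold. Values in a row run from replicate 1 to the last replicate, and 3.89, the median of all log2 values, is used as the level below which a gene was dim. A fold change against a dim group is held down by the array's background.

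The levels of marker genes were set against the labels. All 10 GMP markers in the list used (Mpo, Elane, Prtn3, Ctsg, Cebpa, Csf3r, Fcgr3, Cd34, Ms4a3 and Irf8) were called higher in GMP, by 2.47 to 8.03, where 8.77% of all genes tested were called higher. The 9 of 10 MkE markers that could be tested (Gata1, Klf1, Gfi1b, Epor, Itga2b, Eng, Car1, Zfpm1 and Slamf1) were all called lower in GMP, by 2.22 to 6.15, where 6.79% of all genes tested were called lower. The arrays also differed by sex-linked transcripts. The X-inactivation transcript Xist read 3.77, 3.58 and 4.15 on the GMP arrays and 11.45, 11.26, 11.51 and 10.96 on the MkE arrays. The Y-linked gene Eif2s3y read 8.91, 8.66 and 8.82 in GMP and 2.54, 2.96, 2.74 and 2.61 in MkE. All GMP arrays thus carried the Y-linked transcript without Xist and all MkE arrays the reverse, so lineage cannot be told apart from the sex of the animals or from anything that went with it. A term for this class was fitted to all arrays and is named the term for sex class below. Its change to the GMP minus MkE difference rests on PreB alone, the only group with Xist arrays (2) and Eif2s3y arrays (2). The ETP and LMPP groups set Eif2s3y arrays only against arrays with both transcripts. GMP and MkE share no class, so the term cannot part sex from lineage in this comparison. Under it Eif2s3y itself turned from 6.08 to -1.32, and calls kept or lost under it decide neither. On the sex chromosomes, 16.4% of 421 X-linked genes tested were called against 15.5% of 13438 autosomal genes. Of 5 Y-linked genes tested, 3 were called higher in GMP (Eif2s3y by 6.08, the histone demethylase Kdm5d by 3.53 and its relative Uty by 2.73).

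Replicates were close. Over the genes tested, GMP arrays correlated at 0.995 to 0.997 with each other, MkE arrays at 0.978 to 0.990, and GMP with MkE arrays at 0.901 to 0.912. The median standard deviation of a gene was 0.14 in GMP and 0.24 in MkE. MkE replicate 3 had the highest upper quartile of intensity of these 7 arrays (75.7, against 59.9 to 68.7 for the others).

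Of the 13949 genes, 1223 were called higher in GMP (8.77%) and 947 lower (6.79%), 15.6% in all, and the median difference over all genes tested was -0.03. The counts of each gene list below are to be set against these shares. Changes of at least 16-fold were more often toward GMP, with 89 genes higher and 47 lower. The arrays of the groups overlapped for only 7 of the 2170 called genes. Among the 17 groups, GMP had the highest mean for 434 of the 1223 genes called higher, and MkE had the highest for 167 of the 947 called lower. All GMP arrays lay above all MkE arrays for 21.3% of genes tested and below them for 21.8%, called or not.

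**Figure D1:**
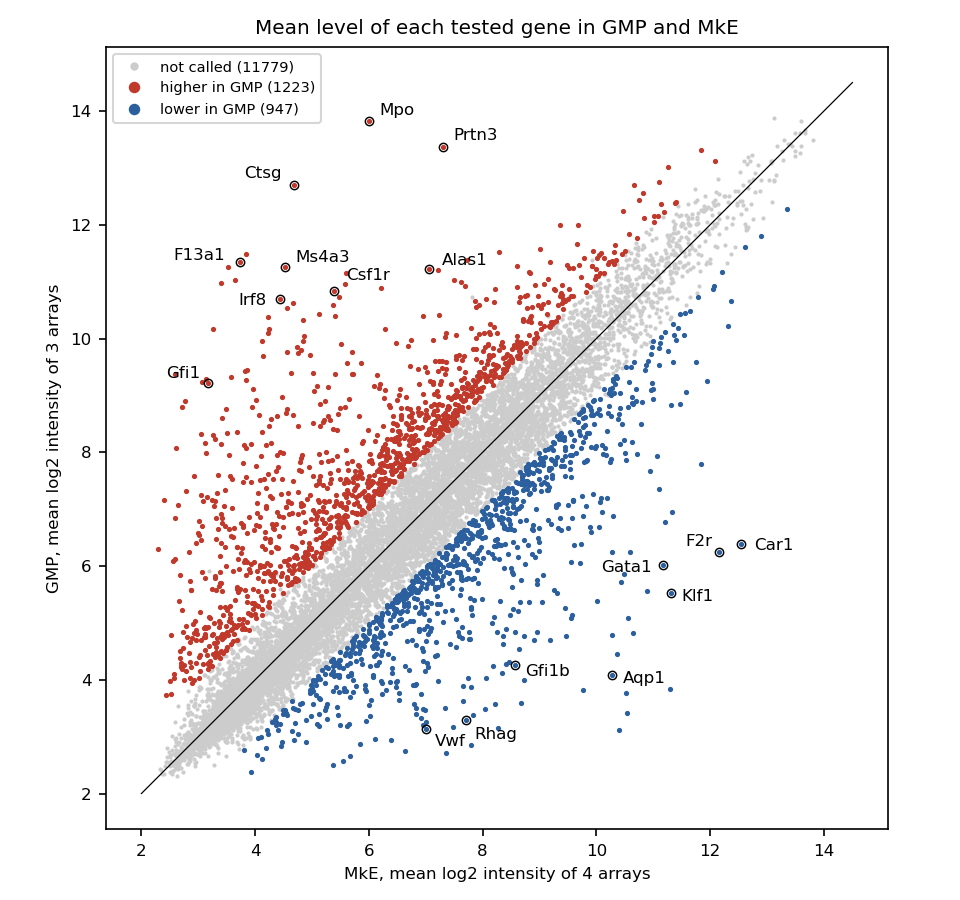
Mean log2 intensity of each of the 13949 genes tested in MkE (horizontal, 4 arrays) and GMP (vertical, 3 arrays); red points are the 1223 genes called higher in GMP, blue points the 947 called lower, grey points the rest, and the line marks equal levels. Ctsg, Mpo and F13a1 stand furthest above the line among the labelled genes, and Aqp1, Car1, F2r and Klf1 far below it.

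The largest rise was in Ctsg. Ctsg, which encodes cathepsin G, a serine protease of the azurophilic granule, read 12.70, 12.72 and 12.68 on the GMP arrays against 5.89, 4.11, 4.44 and 4.27 on the MkE arrays. GMP was 260-fold higher (8.03 ± 0.51, adjusted p = 8.2e-16). Mpo, myeloperoxidase, the enzyme that makes hypochlorous acid in neutrophils, read 13.81, 13.82 and 13.83 in GMP and 7.76, 5.11, 6.34 and 4.76 in MkE. Its 3 GMP values were nearly the same, while the 4 MkE values were spread, with replicate 1 the highest, and the groups lay far apart. The difference was 7.83 ± 0.69 (227-fold, adjusted p = 8.4e-12). The calcium-binding annexin Anxa3 (7.73 ± 0.39), the transglutaminase subunit F13a1, a coagulation factor made by monocytes and platelets (7.61 ± 0.46), and the choline dehydrogenase Chdh (7.58 ± 0.42) followed. They were dim in MkE, with means of 3.52, 3.73 and 3.40. The phospholipid flippase Atp8b4, the sphingomyelin synthase Sgms2, Bex6, Ms4a3, Irf8, Igsf6 and Prom1 rose by 6.14 to 7.37.

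The largest fall other than that of Xist was in Mfsd2b. Mfsd2b, the sphingosine-1-phosphate exporter of red cells and platelets, read 3.08, 3.14 and 3.13 in GMP and 10.26, 10.14, 10.78 and 10.41 in MkE (-7.28 ± 0.27, 156-fold lower, adjusted p = 1.7e-22). The pseudokinase Trib2 was at 3.37, 3.43 and 3.44 in GMP against 10.35, 10.51, 10.63 and 10.68 (-7.13 ± 0.29), with the other probe sets of this gene reaching -0.14. Both were dim on every GMP array and bright on every MkE array, and MkE had the highest mean of the 17 groups for each. The water channel Aqp1 (-6.19), the carbonic anhydrase Car1 (-6.15), the retinaldehyde dehydrogenase Aldh1a1 (-5.95), the thrombin receptor F2r (-5.91), Klf1 (-5.78) and the TGF-beta co-receptor Tgfbr3 (-5.49) were also among the 12 largest falls, as were Ces2g (-6.75), Zg16 (-5.90) and St8sia6 (-5.82). The first 6 of these genes had adjusted p-values of 4.1e-08 or below, the highest being that of F2r.

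Promoter sequences of 2 genes that were high in GMP and 3 that were high in MkE are shown because both sets of genes moved together and textbook factors of each lineage recognise known letters. The sequences are those of RefSeq (build GRCm38.p6), the 250 bases that end just before the annotated start, written 5′ to 3′ along the gene. In Mpo (chr11:87793534-87793783, plus strand) and Prtn3 (chr10:79879417-79879666, plus strand) the capitals mark the PU.1-type letters GAGGAAGT, and in Klf1 (chr8:84901732-84901981, plus strand), Rhag (chr17:40810899-40811148, plus strand) and Epor (chr9:21963577-21963826, minus strand) they mark the GATA-type letters GATAAG, here as the reverse complement CTTATC.
Mpo: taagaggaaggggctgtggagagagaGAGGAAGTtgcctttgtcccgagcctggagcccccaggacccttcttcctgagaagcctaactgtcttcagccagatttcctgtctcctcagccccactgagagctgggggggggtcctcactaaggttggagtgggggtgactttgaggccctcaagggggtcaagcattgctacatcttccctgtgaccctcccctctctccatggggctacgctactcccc
Prtn3: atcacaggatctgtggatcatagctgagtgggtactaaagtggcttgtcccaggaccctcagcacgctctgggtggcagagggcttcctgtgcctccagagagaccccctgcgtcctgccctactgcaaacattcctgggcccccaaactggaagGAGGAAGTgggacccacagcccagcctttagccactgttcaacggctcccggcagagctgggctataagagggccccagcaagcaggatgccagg
Klf1: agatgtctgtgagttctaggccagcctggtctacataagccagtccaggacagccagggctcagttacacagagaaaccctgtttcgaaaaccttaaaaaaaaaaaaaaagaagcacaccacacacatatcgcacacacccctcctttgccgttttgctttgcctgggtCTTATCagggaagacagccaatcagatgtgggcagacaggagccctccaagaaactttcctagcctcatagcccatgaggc
Rhag: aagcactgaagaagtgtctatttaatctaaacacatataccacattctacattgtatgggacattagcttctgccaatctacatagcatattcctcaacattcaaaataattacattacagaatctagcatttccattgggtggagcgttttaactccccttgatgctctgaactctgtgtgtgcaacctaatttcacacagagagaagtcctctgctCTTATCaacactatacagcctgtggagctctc
Epor: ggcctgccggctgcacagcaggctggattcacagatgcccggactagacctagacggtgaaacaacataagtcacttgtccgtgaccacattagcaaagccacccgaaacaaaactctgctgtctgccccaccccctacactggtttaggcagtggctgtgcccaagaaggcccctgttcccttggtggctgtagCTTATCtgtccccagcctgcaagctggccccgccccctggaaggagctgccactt
Counted from the start, the capitals begin at -224 in Mpo, -95 in Prtn3, -81 in Klf1, -32 in Rhag and -55 in Epor, and each window holds the letters 1 time. These 5 promoters and the GATA-type letters were picked after the windows had been looked at, so they illustrate and count for nothing. Both strands of the 300-base windows (250 before and 50 after the start) were searched for 4 motifs. GATAAG was in 7.44% of all 32851 windows, 5.53% of those of genes tested, 5.14% of those of genes called higher in GMP and 7.12% of those called lower. GAGGAAGT was in 3.2%, 3.16%, 4.41% and 3.31% of the same sets. The C/EBP-type letters TTGCNNAA were in 10.8%, 8.74%, 11.2% and 8.02%, and the CACCC-type letters CCNCNCCC, which Klf1 binds, in 49.5%, 66%, 66.8% and 67.4%. Shares thus differed by less than 4 percentage points between genes called higher and lower. In the called primary granule genes, 4 of 12 windows held GAGGAAGT, 4 held TTGCNNAA, 6 held CCNCNCCC and 1 held GATAAG. In the called red cell genes, 4 of 6 windows held GATAAG, that of Rhag among them, and 3 held CCNCNCCC. In the called megakaryocyte-erythroid transcription factors, 4 of 17 windows held GATAAG and 13 held CCNCNCCC. Since GATAAG was picked after the windows had been looked at, its counts illustrate only. A match of letters is a description of the sequence and not a site shown to be bound.

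Transcription factors of the granulocyte-monocyte lineage were mostly higher in GMP. Of 16 tested, 9 were called higher and 1 lower, with a median difference of 1.25, against 8.77% of all genes called higher. Irf8, which directs monocyte and dendritic cell fate, read 10.75, 10.74 and 10.61 in GMP and 4.55, 4.10, 4.85 and 4.27 in MkE (6.26 ± 0.32, 76.7-fold, adjusted p = 2.2e-18). Gfi1, a repressor needed for neutrophil development, read 9.39, 9.11 and 9.17 against 3.24, 3.12, 3.25 and 3.06 (6.06 ± 0.34, 66.6-fold, adjusted p = 2e-17). Both factors were bright on every GMP array, Gfi1 was dim on every MkE array, and no array overlapped. Klf4, a factor of monocytes, rose by 5.04 ± 0.69, and Cebpd, a C/EBP protein, by 3.96 ± 0.30. Cebpa, the C/EBP protein required to form GMP cells, read 6.72, 7.0 and 6.24 in GMP and 3.70, 3.32, 3.59 and 3.57 in MkE, an 8.64-fold difference (3.11 ± 0.19, adjusted p = 3.7e-16). Id2, an inhibitor of basic helix-loop-helix factors, rose by 3.32, with another of its probe sets at -0.08. Cebpb (1.72 ± 0.39), Bcl6 (1.37 ± 0.39) and Nfil3 (1.12 ± 0.31) were called by smaller margins, and the Nfil3 call was lost without GMP replicate 1 (0.92). These last 3 calls did not hold under a term for the Xist and Eif2s3y class fitted to all arrays, where 5 of the 9 remained called, nor did those of Cebpb and Bcl6 with the mean of all probe sets (0.74 and 0.64). Zeb2, a zinc finger repressor, was the member called lower (-1.14 ± 0.28), with probe sets from -1.14 to 0.39, and the call was lost without GMP replicate 3 (-0.97).

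Spi1, which encodes PU.1, did not pass the test. It read 6.31, 6.32 and 5.74 on the GMP arrays and 5.58, 5.15, 5.43 and 5.55 on the MkE arrays (0.69 ± 0.31, adjusted p = 0.097). All GMP values lay above all MkE values, by less than 2-fold on average. Under the term for sex class Spi1 was called higher (2.06, adjusted p = 5.9e-05). Among the 15 factors that serve both lineages, Runx1 (8.83, 8.70 and 8.40 against 8.81, 8.34, 8.83 and 8.40) overlapped and Myb (12.52, 12.46 and 12.12 against 12.56, 12.80, 12.98 and 12.54) differed by -0.35 ± 0.18 (adjusted p = 0.16). Myb was called lower under the term for sex class (-1.08, adjusted p = 0.0014).

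Factors of the megakaryocyte-erythroid lineage were lower in GMP. Of 21 tested, 14 were called lower and 0 higher, with a median of -2.51, against 6.79% of all genes called lower, and 12 of the 14 remained called under the term for sex class. Gata1, the central factor of red cell and megakaryocyte maturation, read 6.08, 6.0 and 5.95 in GMP and 11.09, 11.15, 11.29 and 11.17 in MkE (-5.17 ± 0.25, 35.9-fold lower, adjusted p = 5.7e-19). Klf1, which activates the adult globin genes, read 5.78, 5.24 and 5.55 in GMP against 10.97, 11.15, 11.78 and 11.32 (-5.78 ± 0.40, 55-fold lower, adjusted p = 1e-14). Neither was dim in GMP, and the groups were separated by more than 4 log2 units. The Gata1 cofactor Zfpm1 fell by 4.68, with GMP the lowest of the 17 groups, and Gfi1b, the relative of Gfi1 that acts in red cells and platelets, fell by 4.31. Gfi1b read 4.39, 4.06 and 4.31 in GMP and 8.51, 8.12, 8.95 and 8.66 in MkE, opposite in direction to Gfi1. Gata2, the GATA factor of stem and early progenitor cells, fell by 3.42 ± 0.22. The partners of Tal1 fell with it, Tal1 itself by -2.74 ± 0.21, the bridging protein Ldb1 by -2.92 ± 0.43, the corepressor Cbfa2t3 by -2.72 ± 0.25 and Lmo2 by -1.44 ± 0.28. The calls of Ldb1 (-0.90) and Lmo2 (-0.53) were the 2 lost under the term for sex class. The fetal globin repressor Bcl11a (-2.76), the forkhead factor Foxo3 (-2.51), Nfia (-2.48, with its 6 probe sets from -2.48 to 0.03) and the platelet factor Nfe2 (-1.97) were also called. Fli1, a megakaryocyte factor, was not called (0.90 ± 0.31, adjusted p = 0.025), with another probe set at -1.25, and passed 2-fold with array weights (1.04), without GMP replicate 3 (1.01) or without MkE replicate 3 (1.10).

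**Figure D2:**
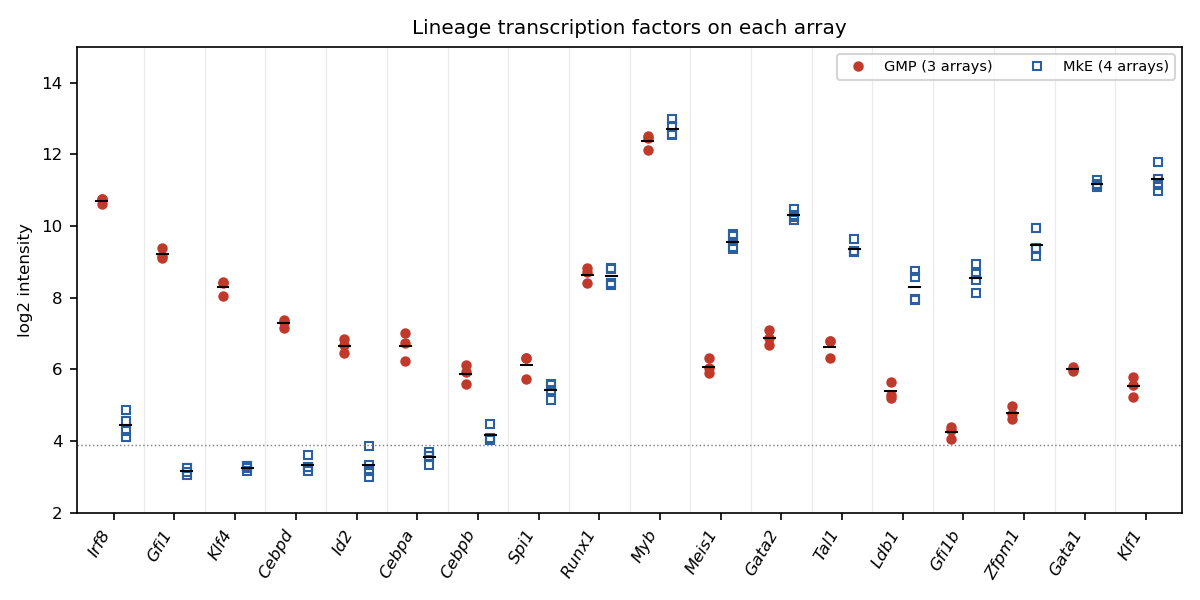
Log2 intensity of 18 lineage transcription factors on each GMP array (red circles, 3) and MkE array (blue squares, 4); black bars are group means and the dotted line is the median of all log2 values (3.89). Factors from Irf8 to Cebpb lie higher in GMP, Spi1, Runx1 and Myb lie close together, and those from Meis1 to Klf1 lie higher in MkE.

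Of the 15 factors of both lineages, 6 were called lower and 1 higher (median -0.46). Mycn, a MYC family member, read 4.99, 5.20 and 5.10 in GMP and 9.27, 9.39, 10.36 and 9.20 in MkE (-4.46 ± 0.33), with its other probe sets reaching 0.08. Myc itself read 8.60, 8.37 and 8.09 against 9.38, 9.48, 9.85 and 9.46, a 2.28-fold lower level in GMP (-1.19 ± 0.24, adjusted p = 0.00019). The signal transducers Stat5a (-1.57) and Stat5b (-1.66), which act below the erythropoietin receptor among others, and the E proteins Tcf3 (-1.45) and Tcf4 (-1.62) completed the 6. Ets1 was called higher (1.26). With the mean of all probe sets, 2 of the 6 lower calls and 0 of the 1 higher call held.

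Receptors for the growth factors of granulocytes and monocytes were higher in GMP for 7 of 16 tested, and 1 was lower (median 0.86). Csf1r, the receptor for macrophage colony-stimulating factor, read 10.88, 10.87 and 10.77 in GMP and 5.56, 5.02, 5.86 and 5.11 in MkE (5.46 ± 0.57, 43.9-fold, adjusted p = 5.3e-10). Csf3r, the receptor for granulocyte colony-stimulating factor, read 6.55, 5.92 and 6.20 against 3.68, 3.63, 4.03 and 3.68 (2.47 ± 0.29, 5.54-fold, adjusted p = 1e-08). Neither receptor overlapped between the groups. The common beta chain Csf2rb of the receptors for interleukin-3, interleukin-5 and GM-CSF rose by 3.99, its interleukin-3-specific copy Csf2rb2 by 1.81, the interleukin-6 signalling chain Il6st by 3.51 and the TNF receptor Tnfrsf1b by 1.21. Il6ra, the chain that binds interleukin-6, rose by 1.74, but its other probe set gave 0.00. The GM-CSF binding chain Csf2ra was not called (6.07, 5.95 and 6.03 against 5.00, 5.59, 5.75 and 5.09, 0.66 ± 0.25, adjusted p = 0.046). Il17ra, a receptor for interleukin-17, was the member called lower (-1.41 ± 0.23). Under the term for sex class, 4 of the 7 higher calls remained, and the lower call of Il17ra was lost (-0.65).

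Of 11 receptors of the megakaryocyte-erythroid lineage, 3 were called lower and 1 higher. Epor, the erythropoietin receptor, read 4.69, 4.97 and 4.65 in GMP and 7.48, 6.97, 8.20 and 7.66 in MkE (-2.81 ± 0.27, 6.99-fold lower, adjusted p = 6.3e-11). Tgfbr3 (-5.49) and its relative endoglin (Eng, -2.22) were the others. Tfrc, the receptor that takes up transferrin iron, was higher in GMP (1.07 ± 0.26), with its 6 probe sets from -0.05 to 1.41. Kit, the receptor for stem cell factor, was high in both groups and not called (9.32, 9.20 and 9.01 against 9.71, 9.69, 10.45 and 10.10, -0.82 ± 0.41, adjusted p = 0.14). Kit was called lower with the mean of its probe sets (-1.07, adjusted p = 0.0065) and under the term for sex class (-3.14, adjusted p = 5.7e-07).

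Among 13 surface antigens commonly used to sort marrow progenitors, 3 were called higher and 4 lower. Fcgr3, a low-affinity receptor for antibodies, read 9.33, 9.12 and 8.89 in GMP against 3.97, 3.98, 3.57 and 4.29 in MkE (5.16 ± 0.32, 35.8-fold, adjusted p = 6.8e-16). The related Fcgr2b rose by 2.20, with probe sets from -0.07 to 3.70. Cd34 read 8.86, 8.58 and 8.24 in GMP and 5.65, 5.11, 5.54 and 4.97 in MkE (3.25 ± 0.22, adjusted p = 6.4e-15). Both Fcgr3 and Cd34 separated the groups on every array. The signalling receptor Slamf1 (CD150, -3.42), the platelet integrin Itga2b (CD41, -2.23), Eng (-2.22) and the tetraspanin Cd9 (-1.40) were the 4 that fell. If any of these proteins was a gate of the sort, its transcript is no independent result, and the labels give no gates.

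Primary granule genes were higher in GMP in 12 of 14 tested, 0 were lower, and the median was 2.93. Prtn3, proteinase 3, read 13.30, 13.43 and 13.38 in GMP and 7.97, 6.91, 7.47 and 6.88 in MkE (6.06 ± 0.43, 66.9-fold, adjusted p = 2.6e-14). Elane, neutrophil elastase, read 8.62, 8.20 and 8.55 against 5.32, 4.44, 4.83 and 4.42 (3.70 ± 0.27, 13-fold, adjusted p = 7e-14). In both, and in Mpo and Ctsg, the highest MkE array was replicate 1. Ms4a3, a membrane protein of granulocyte progenitors, rose by 6.74. Serpinb1a, the cytoplasmic inhibitor of these proteases, rose by 3.98, Ctsc, the protease that activates them, by 1.99, and the ficolin Fcnb by 2.21. Of the 12 calls, 10 remained under the term for sex class. The 2 uncalled members were bright in both groups. Plac8 read 12.79, 12.81 and 12.80 against 12.25, 12.15, 12.01 and 12.13 (0.67 ± 0.19), and Srgn, the proteoglycan that packs granule proteins, read 12.33, 12.37 and 12.33 against 12.08, 12.10, 12.03 and 12.16 (0.26 ± 0.12).

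Genes of later neutrophil granules were called higher in 4 of 16, with 0 lower and a median of 0.86. Hp, haptoglobin, which binds free haemoglobin, read 10.73, 10.50 and 10.39 in GMP and 4.88, 4.58, 4.55 and 4.20 in MkE (5.98 ± 0.36, 63.3-fold, adjusted p = 1.6e-16). Annexin A1 (Anxa1) rose by 3.23, the leukotriene B4 receptor Ltb4r1 by 2.20 and the peptidoglycan-binding Pglyrp1 by 1.68. Under the term for sex class the calls of Anxa1 (0.28) and Pglyrp1 were lost. The calcium-binding protein S100a8 was not called (10.76, 10.66 and 10.76 in GMP against 9.34, 6.86, 7.25 and 7.80 in MkE, 2.91 ± 1.50, adjusted p = 0.16). S100a8 was called in 3 alternatives, with the GMP and MkE arrays alone (2.91, adjusted p = 4.4e-05), with array weights (3.04, adjusted p = 0.0016) and with the replicate number as a block (3.85, adjusted p = 0.021), and it was -3.55 under the term for sex class. Its partner S100a9 overlapped (8.52, 7.86 and 8.03 against 7.98, 6.10, 5.89 and 6.78), as did the granule protein Ngp (8.43, 7.95 and 8.22 against 9.55, 7.21, 8.49 and 8.36). S100a9 was called with these arrays alone (1.45, adjusted p = 0.0062), and Ngp was called lower under the term for sex class (-6.08). MkE replicate 1 was the highest MkE array for all 3. The mean of the 16 genes was 5.80 on MkE replicate 1 and 4.95 to 5.22 on the other MkE arrays, against 6.54 to 6.74 in GMP. The part of mature neutrophils in the MkE samples was not tested.

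Monocyte genes were called higher in 13 of 18, with 0 lower, and had the highest median of the 37 lists described (3.24). Ms4a6c, a membrane protein of monocytes, read 10.80, 10.76 and 10.30 in GMP and 4.79, 4.74, 4.66 and 4.47 in MkE (5.96 ± 0.47, 62.1-fold, adjusted p = 3.3e-13). Emb rose by 5.92, Ly86, the partner of a Toll-like receptor relative, by 5.84, the lectin Clec4a2 by 5.20 and Mpeg1, the pore-forming protein perforin-2, by 4.76. Cd14, the co-receptor for bacterial lipopolysaccharide, was low in both groups (5.01, 5.09 and 4.97 against 3.50, 3.45, 3.29 and 3.23) and rose by 1.66 ± 0.43. The mean of the 18 genes ran from 7.27 to 7.38 on the GMP arrays and from 4.03 to 4.16 on the MkE arrays. Of the 13 calls, 8 remained under the term for sex class, and Mpeg1 and Cd14 turned to -0.13 and -1.39. In bulk samples, a change in the number of cells that make a transcript and a change in its amount per cell cannot be told apart.

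Of 7 subunits of the phagocyte oxidase, which makes superoxide, 3 were called higher and 0 lower. Ncf1 (p47-phox) read 10.22, 10.30 and 10.47 in GMP and 5.39, 4.53, 4.78 and 4.65 in MkE (5.49 ± 0.35, 45-fold, adjusted p = 8.1e-16). The catalytic subunit Cybb (gp91-phox) rose by 4.85 and Ncf4 (p40-phox) by 4.26. The partner subunit of Cybb, Cyba, and the GTPases Rac1 and Rac2 were not called (0.20, 0.95 and 0.10). All 3 were called higher under the term for sex class (3.14, 1.32 and 2.46), and Rac1 passed 2-fold with array weights (1.07) and without GMP replicate 3 (1.07) or MkE replicate 3 (1.04). Of 18 Toll-like receptor and inflammasome genes, 9 were called higher and 0 lower (median 1.03). The fungal glucan receptor Clec7a rose by 4.82 ± 0.63, Tlr2 by 2.17 ± 0.21, caspase-1 (Casp1) by 2.11 ± 0.26 and Tlr4 by 1.41 ± 0.25. Of the 9 calls, 7 remained under the term for sex class, and that of Clec7a did not (0.51). Tlr4 was low in GMP (5.14, 5.56 and 5.35) and its 4 probe sets ran from -0.07 to 3.34.

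Lysosomal hydrolases were called higher in 8 of 16, with 0 lower (median 0.85). Cathepsin S (Ctss), which trims the chain that guards MHC class II, read 10.08, 10.04 and 9.77 in GMP against 4.96, 4.43, 5.55 and 4.46 (5.11 ± 0.28, 34.7-fold). Cathepsin H (Ctsh) rose by 4.76 and the hexosaminidase chain Hexa by 1.76. Of 8 enzymes of leukotriene and prostaglandin synthesis, 3 were called higher and 0 lower. Lta4h, which makes leukotriene B4, read 12.01, 11.95 and 12.03 against 8.89, 9.19, 9.63 and 9.74 (2.64 ± 0.25), Ptgr1, which inactivates it, rose by 2.65, and the 5-lipoxygenase activator Alox5ap by 2.00. Lta4h had another probe set at -0.31, and Alox5ap turned to -1.95 under the term for sex class. Among 16 integrins and homing receptors, 1 was called higher and 2 lower, where 8.77% and 6.79% of all genes tested were. The integrin chains Itgb7 and Itga4, which pair, differed by -2.08 and -1.72. The chemokine receptor Cxcr4, which holds cells in the marrow, read 8.89, 8.77 and 8.66 against 6.92, 6.90, 6.97 and 6.63 (1.92 ± 0.73, adjusted p = 0.045), a call that was lost when any 1 of the 7 arrays was left out.

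Red cell genes were lower in GMP for 10 of 19 tested, with 0 higher and a median of -1.12. Rhag, the ammonia channel of the Rh complex, read 3.33, 3.13 and 3.42 in GMP and 7.82, 7.40, 7.90 and 7.68 in MkE (-4.41 ± 0.28, 21.2-fold lower, adjusted p = 1.4e-15). Car1 read 6.48, 6.38 and 6.32 against 12.29, 12.53, 12.70 and 12.67 (-6.15 ± 0.46, 71.1-fold lower, adjusted p = 1.3e-13). Rhag was dim on all GMP arrays, whereas Car1 was not, and both separated the groups. The erythroid membrane protein Ermap (-4.62), the carbonic anhydrase Car2 (-4.38), the blood group proteins Kel (-3.83), Icam4 (-3.07) and Rhd (-1.60) and the membrane anchor ankyrin (Ank1, -1.61) fell as well. Cldn13 was called (-1.12 ± 0.31) and missed the fold threshold without GMP replicate 3 (-0.98). Of the 10 calls, 8 remained under the term for sex class. Slc4a1 and Alas2, genes of the maturing red cell, were dim in both groups. Slc4a1, the band 3 anion exchanger, read 3.22, 3.19 and 3.32 in GMP and 3.11, 3.19, 3.05 and 3.15 in MkE. Alas2, the erythroid enzyme of haem synthesis, read 3.00, 3.19 and 3.00 against 3.45, 3.08, 3.09 and 3.20.

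Haem and iron genes moved in both directions, with 4 called higher and 8 lower of 23 (median -0.59). Alas1, the general form of the first enzyme of haem synthesis, was high in GMP (11.34, 11.23 and 11.11) and lower in MkE (6.76, 6.61, 7.52 and 7.37). GMP exceeded MkE 17.9-fold (4.16 ± 0.36, adjusted p = 3.5e-12), and GMP had the highest mean of the 17 groups. Alad, the enzyme of the next step, went the other way (7.20, 7.24 and 7.12 against 9.79, 10.21, 10.61 and 10.15, -3.0 ± 0.39), and the later enzyme Urod fell by 1.14. The iron sensor Tfr2 read 7.52, 7.47 and 7.09 in GMP and 11.07, 11.00, 11.41 and 10.92 in MkE (-3.74 ± 0.25, 13.4-fold lower, adjusted p = 5.5e-15). Biliverdin reductase B (Blvrb, -3.72), the glutathione synthesis subunit Gclm (-2.52), the endosomal iron reductase Steap3 (-2.37) and the ferritin heavy chain Fth1 (-1.10, and -0.97 without GMP replicate 3) were called lower. The ergothioneine carrier Slc22a4 (1.82) and the mitochondrial transporter Abcb10 (1.19) were called higher. Urod turned to 0.05, and the call of Alad was lost (-0.58), under the term for sex class, with 4 of the 8 lower calls remaining.

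Megakaryocyte and platelet genes were called lower in 9 of 26 and higher in 2 (median -0.66). F2r, a thrombin receptor, read 6.29, 6.38 and 6.06 in GMP and 12.33, 12.14, 12.07 and 12.08 in MkE (-5.91 ± 0.74, 60.2-fold lower). Vwf, the von Willebrand factor, read 3.09, 3.15 and 3.17 against 6.90, 6.79, 7.47 and 6.86 (-3.87 ± 0.38, 14.6-fold lower). The platelet glycoproteins Gp5 (-2.92) and Gp9 (-1.11), the growth factor Angpt1 (-2.88) and Itga2b (-2.23) fell, and all 9 lower calls remained under the term for sex class. The partner of Itga2b went the other way, since the integrin chain Itgb3 read 6.65, 6.67 and 6.23 in GMP against 3.31, 3.91, 3.63 and 3.60 (2.90 ± 0.32, 7.47-fold, adjusted p = 1.7e-09), with its other probe set at -0.23. Platelet factor 4 (Pf4) was not called in the fit of all groups (-1.11 ± 0.73, adjusted p = 0.29), but was with the GMP and MkE arrays alone (adjusted p = 0.0011) and under the term for sex class (-3.88).

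Stem cell genes were called lower in GMP in 7 of 17 and higher in 0 (median -0.78). Besides Vwf, Mycn and Slamf1 they included Meis1, a homeobox factor (6.03, 6.31 and 5.89 in GMP against 9.35, 9.41, 9.77 and 9.71 in MkE, -3.49 ± 0.27), and the angiopoietin receptor Tek (2.98, 3.01 and 2.84 against 5.82, 6.15, 6.66 and 6.95, -3.45 ± 0.37). These values did not overlap. Procr, the protein C receptor of stem cells, was not called (0.88 ± 0.32, adjusted p = 0.034), except without GMP replicate 2 (1.02, adjusted p = 0.037). Of 11 HoxA, HoxB, Meis and Pbx family genes, 3 were called lower (Meis1, Hhex at -1.81 and Pbx3 at -1.05). The Pbx3 call (adjusted p = 0.042) was lost when any 1 of the 7 arrays was left out. Hoxa9 overlapped between the groups (0.40 ± 0.39) and was -2.00 under the term for sex class.

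**Figure D3:**
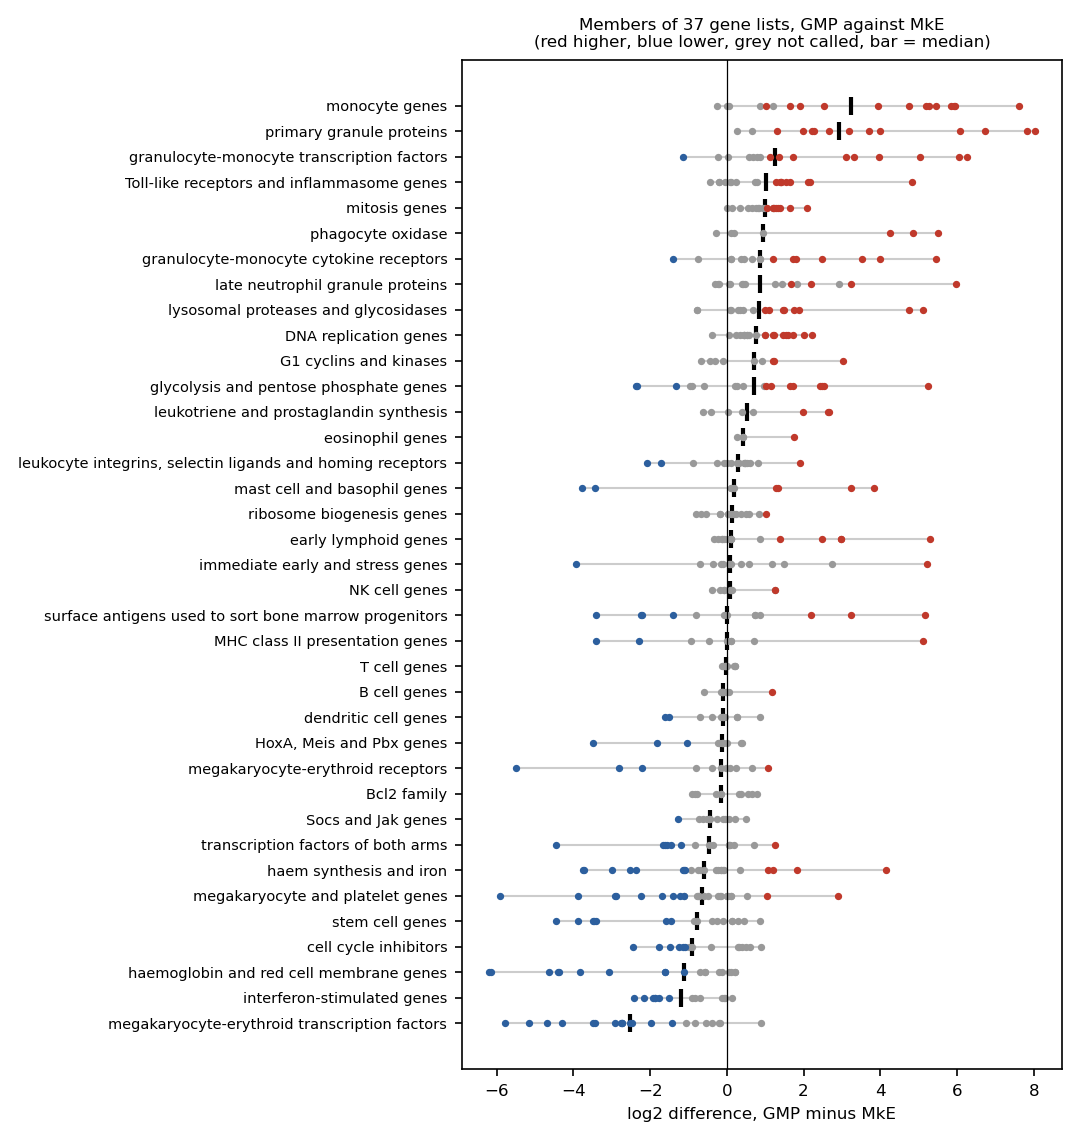
Log2 difference between GMP and MkE for every tested member of the 37 gene lists, sorted by the list's median (black bar); red points were called higher in GMP, blue points lower, grey points not called, and the grey line spans the list. Monocyte (median 3.24) and primary granule genes (2.93) stand at the top, megakaryocyte-erythroid transcription factors (-2.51) at the bottom, and many lists hold calls in both directions.

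Of 21 DNA replication genes, 9 were called higher and 0 lower (median 0.77), and of 19 mitosis genes, 8 were called higher and 0 lower (median 1.00). The count of mitosis genes ran from 4 to 10 when 1 array was left out. Rrm2, the subunit of ribonucleotide reductase that limits DNA precursors, read 10.97, 11.05 and 10.79 in GMP and 9.21, 9.01, 8.90 and 8.57 in MkE (2.01 ± 0.32, 4.03-fold, adjusted p = 3.1e-06). The replication factors Cdc45 and Cdc6 rose by 2.23 and 1.72 and thymidine kinase Tk1 by 1.55. The spindle checkpoint kinase Bub1 rose by 2.09, the kinase Aurkb by 1.66 and the cyclin Ccnb2 by 1.34. The cyclin Ccne2, which starts replication, read 8.63, 8.24 and 8.35 against 4.82, 5.62, 5.93 and 5.12 (3.03 ± 0.32), and it, Ccne1 (1.22) and the phosphatase Cdc25a (1.24) were the 3 of 9 G1 genes called. Of 15 cell cycle inhibitors, 6 were called lower and 0 higher (median -0.92). They included the stress-response gene Gadd45a (-2.45), the translation inhibitor Pdcd4 (-1.77), the cyclin Ccng2 (-1.48, another probe set at 0.37) and the kinase inhibitors Cdkn2d (-1.25) and Cdkn1b (-1.14). Under the term for sex class, 8 of the 9 replication, all 8 mitosis and 5 of the 6 inhibitor calls remained. Ribosome biogenesis genes showed 1 higher call of 16, where 8.77% of all genes tested were called higher.

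Genes of sugar breakdown differed by isozyme. Of 18 glycolysis and pentose phosphate genes, 8 were called higher and 3 lower (median 0.70). Hexokinase 3 (Hk3) read 10.67, 10.82 and 10.69 in GMP and 5.77, 5.48, 5.27 and 5.38 in MkE (5.25 ± 0.26, 38-fold, adjusted p = 7.6e-19), and hexokinase 2 (Hk2) rose by 2.48. Hexokinase 1 (Hk1), the form of red cells, read 7.81, 7.82 and 8.0 against 9.94, 10.22, 10.86 and 9.99 (-2.38 ± 0.33, 5.19-fold lower, adjusted p = 3.6e-07). GMP had the highest mean of the 17 groups for Hk2 and Hk3, and MkE had it for Hk1. In the same way the phosphofructokinase Pfkp rose by 1.65 and Pfkm fell by 1.33. The Pfkp call was lost with the mean of its probe sets (0.85) and that of Pfkm under the term for sex class (-0.90). Pgam1 rose by 2.54 and pyruvate kinase Pkm by 2.43, and the glucose transporter Slc2a3 fell by 2.34, with another probe set at 0.12.

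Interferon-stimulated genes were called lower in GMP in 7 of 14, with 0 higher and a median of -1.20. Usp18, which dampens interferon signalling, read 3.80, 4.10 and 3.96 in GMP and 6.15, 6.50, 6.67 and 6.13 in MkE (-2.41 ± 0.35). Irf9, the DNA-binding part of the interferon-activated complex, read 6.14, 6.22 and 6.0 against 8.21, 7.94, 8.62 and 8.40 (-2.17 ± 0.23), the lowest mean of the 17 groups. Both sets of values lay apart. Ifitm3 (-1.91), Oasl2 (-1.88) and Irf7 (-1.50) fell as well, and 5 of the 7 calls remained under the term for sex class. Among 9 genes of MHC class II presentation, Ctss was called higher and 2 were called lower, H2-Ob (-3.41) and H2-Oa (-2.28), the chains of a protein that restrains peptide loading. Of 14 immediate early and stress genes, 1 was called in each direction, where 8.77% and 6.79% of all genes tested were called higher and lower. Fos read 10.45, 10.51 and 10.79 in GMP and 4.38, 6.03, 5.68 and 5.38 in MkE (5.22 ± 1.36, adjusted p = 0.0029), whereas Egr1 read 4.01, 4.43 and 4.26 against 8.03, 7.86, 8.74 and 8.08 (-3.94 ± 0.89, adjusted p = 0.00063). Jun, the partner of Fos, was not called in the fit of all groups (2.73 ± 1.21, adjusted p = 0.091), but was with the GMP and MkE arrays alone (adjusted p = 3.2e-09) and with array weights (2.80, adjusted p = 0.0008). Among the 13 Socs and Jak genes, only Jak2, the kinase of the erythropoietin receptor, was called (-1.27 ± 0.18). Of 11 Bcl2 family genes, 0 were called by limma and 4 had an unadjusted p under 0.05, none of them at 2-fold.

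Markers of other cell types were examined on each array. The 9 T cell genes were dim or low on all 7 arrays, with list means of 3.67 to 3.76 in GMP and 3.53 to 3.76 in MkE, 0 calls by limma and 0 with an unadjusted p under 0.05. The 10 B cell genes had means of 3.83 to 3.93 and 3.73 to 4.00, and the B cell receptor chain Cd79b was called higher in GMP (1.18). The 10 NK cell genes also had 1 higher call, granzyme B (Gzmb, 1.27), where 8.77% of all genes tested were called higher. The 11 dendritic cell genes had 2 lower calls (Irf7 and Tcf4), where 6.79% of all genes tested were called lower. Mast cell and basophil genes moved in both directions, 4 higher and 2 lower of 9. The IgE receptor chain Ms4a2 read 7.85, 8.0 and 7.96 in GMP against 4.08, 3.75, 4.26 and 4.33 (3.83 ± 0.27), and the basophil protease Mcpt8 read 7.36, 7.29 and 7.19 against 4.03, 4.21, 3.84 and 4.10 (3.23 ± 0.34). The histidine decarboxylase Hdc rose by 1.32 in its brightest probe set and by 6.86 in another, and the mast cell protease Cpa3 by 1.29. Both calls were lost under the term for sex class (0.84 for Hdc and 0.53 for Cpa3). The amine transporter Slc18a2 (-3.77) and Gata2 fell. Prg2, the eosinophil major basic protein, rose by 1.74 and was the 1 call of 4 eosinophil genes.

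Early lymphoid genes were called higher in GMP in 5 of 15, with 0 lower (median 0.12). Notch1 read 9.25, 9.19 and 8.96 in GMP and 5.65, 6.21, 6.55 and 6.27 in MkE (2.96 ± 0.25), the chromatin organiser Satb1 rose by 2.48, Btla by 2.97 and Lsp1 by 1.38. The immunoglobulin heavy chain gene Ighm read 10.45, 10.43 and 10.39 in GMP and 9.26, 3.31, 4.31 and 3.63 in MkE (5.30 ± 0.92). MkE replicate 1 stood near the GMP arrays for Ighm and apart from the other 3 MkE arrays, and the 11 probe sets of this gene gave differences from -0.39 to 5.30 (0.70 for their mean). Dntt, the enzyme that adds bases to rearranging receptor genes, overlapped and was low in both (4.97, 4.90 and 4.69 against 5.67, 4.94, 5.21 and 4.92). Dntt was called lower under the term for sex class (-2.26).

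**Figure D4:**
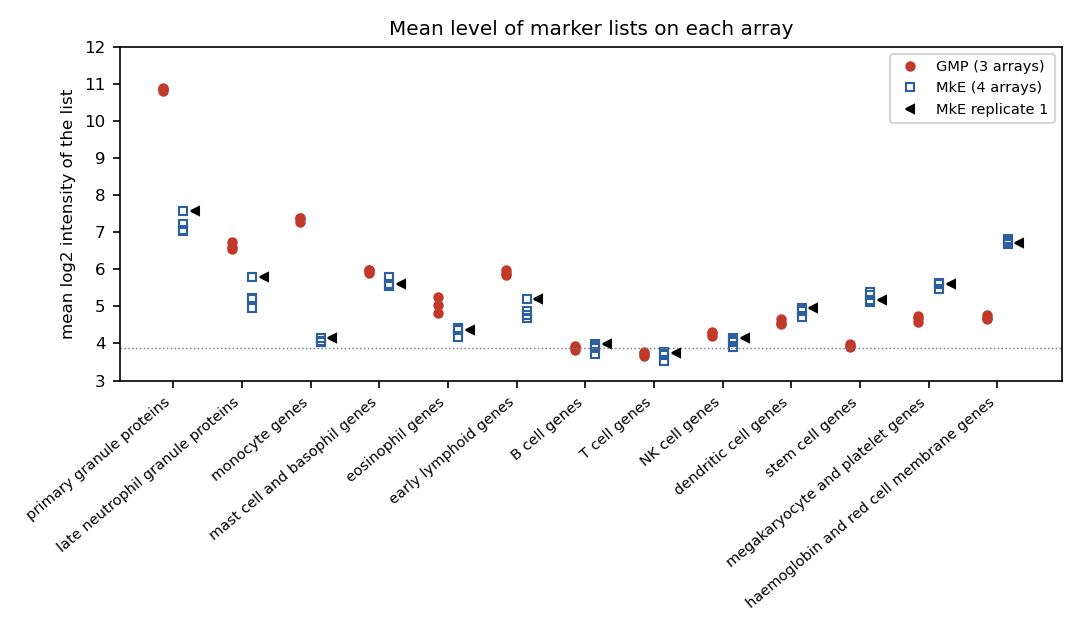
Mean log2 intensity of 13 marker lists on each GMP array (red circles) and MkE array (blue squares), with black triangles pointing at MkE replicate 1; the dotted line is the median of all log2 values (3.89). T and B cell lists lie near the dotted line on all arrays, and MkE replicate 1 is the highest MkE array for the primary granule, late neutrophil granule, monocyte, early lymphoid, B cell, NK cell and dendritic cell lists.

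The difference between the lineages was then set against that between the GM and PreCFUE groups. The labels do not give the stage of either group relative to GMP and MkE. The arrays of both pairs are separate, so the difference of the differences was tested in the same fit. It was positive for 969 of 13949 genes (6.95%) and negative for 1395 (10%), 16.9% in all. All GM and PreCFUE arrays carry Xist without Eif2s3y, as the MkE arrays do, so the difference of differences holds the GMP class against the others.

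The difference of differences did not pass the test for 6 lineage genes picked after their values were seen, while it passed for other genes of the same lists, 15 of the 21 megakaryocyte-erythroid transcription factors among them. Mpo differed by 7.83 between GMP and MkE and by 8.15 between GM and PreCFUE (difference -0.32 ± 1.08, adjusted p = 0.89). Irf8 differed by 6.26 and 7.18, Csf1r by 5.46 and 5.63, Gata1 by -5.17 and -4.32, Klf1 by -5.78 and -4.52 and Epor by -2.81 and -2.94. Mpo averaged 13.06 on the 2 GM arrays and read 4.20, 6.29 and 4.25 on the PreCFUE arrays, so GM lay below the 3 GMP arrays and far above PreCFUE. GM against MkE, where both groups carry Xist, gave 7.07 ± 0.78 for Mpo, 6.44 ± 0.36 for Irf8, 5.51 ± 0.64 for Csf1r, 3.68 ± 0.22 for Cebpa, -4.21 ± 0.28 for Gata1, -4.07 ± 0.45 for Klf1 and -2.41 ± 0.30 for Epor. These differences, of genes picked after their values were seen, run the same way as those of GMP with MkE. They lie within 1 class of sex-linked transcripts and share the MkE arrays. Not every gene did so, since Meis1 was lower in GMP than in MkE but near MkE in GM.

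Other genes differed between the pairs. Sgms2 was high in GMP only (9.44, 9.32 and 9.36, against 3.28 and 3.39 in GM, 2.43 to 2.68 in MkE and 2.31 to 2.59 in PreCFUE), with a difference of differences of 5.93 ± 0.66 (adjusted p = 9.5e-09). Prom1, which encodes the membrane protein prominin-1, read 9.39, 9.36 and 9.10 in GMP against 3.68 and 4.77 in GM (5.08 ± 0.48), the guanine deaminase Gda gave 5.89 ± 0.73 and the glucosidase Mgam 5.51 ± 0.22. Fcgr3 was higher in GMP than in GM (4.98 and 5.56), with a difference of differences of 3.88 ± 0.51. In these 5 genes the GMP arrays stood above all arrays of the other 3 groups. Sphk1, a sphingosine kinase, gave 5.28 ± 0.58 through its level in PreCFUE, where it was high (9.99, 9.81 and 9.89), while it lay between 3.56 and 4.96 on the other 9 arrays.

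The largest negative differences were in genes that were higher in GM than in GMP. Dntt read 11.96 on each GM array but 4.69 to 4.97 in GMP, 4.92 to 5.67 in MkE and 4.66 to 5.38 in PreCFUE (-7.21 ± 0.60, adjusted p = 1.2e-11). Meis1 read 9.44 and 9.43 in GM, near the 4 MkE arrays, and 5.70, 5.58 and 4.94 in PreCFUE, near GMP (-7.52 ± 0.41). All GM and MkE arrays also lay above all GMP and PreCFUE arrays for H2-Ob (-8.45 ± 0.65), Mycn (-7.58 ± 0.51), the protease inhibitor-like Ctla2a (-8.88 ± 1.08) and Ctla2b (-7.50 ± 1.04). For Ctla2b the GMP arrays stood between, at 6.33, 6.09 and 5.73, with PreCFUE at 3.25, 3.27 and 2.94. The call of Ctla2b between GMP and MkE (-1.90 ± 0.67, adjusted p = 0.028) was lost when any of 4 arrays was left out. Cd34 read 11.30 and 11.08 in GM, above GMP, and 3.39, 3.58 and 3.29 in PreCFUE, below MkE (-4.52 ± 0.34), and Flt3 read 9.94 and 10.06 in GM against 6.14, 6.49 and 6.30 in GMP (-3.73 ± 0.48). Of the 17 stem cell genes, 13 had a called negative and 0 a called positive difference of differences.

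**Figure D5:**
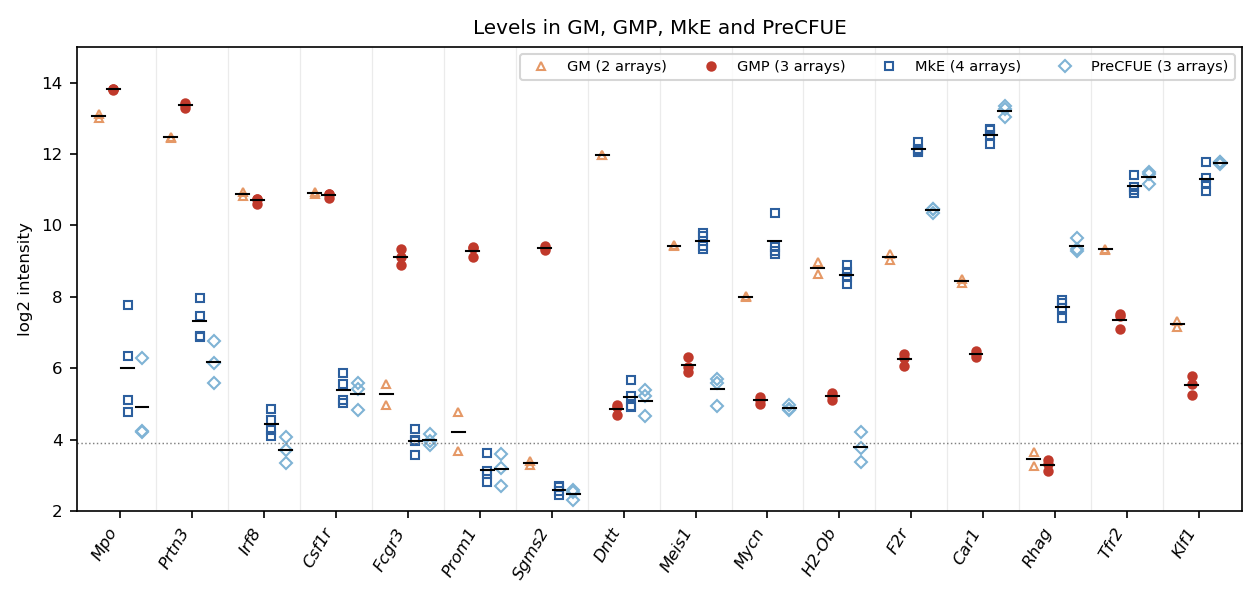
Log2 intensity of 16 genes on the arrays of GM (orange triangles, 2), GMP (red circles, 3), MkE (blue squares, 4) and PreCFUE (light blue diamonds, 3); black bars are group means and the dotted line is the median of all log2 values (3.89). Mpo, Prtn3, Irf8 and Csf1r are high in both GM and GMP, Fcgr3, Prom1 and Sgms2 in GMP alone, Dntt in GM alone, and Meis1, Mycn and H2-Ob in GM and MkE.

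Cell cycle genes separated the pairs as well. Of the 19 mitosis genes, 12 had a called positive difference of differences and 0 a negative one, as did 9 and 0 of the 21 replication genes. Rrm2 was higher in GMP than in MkE by 2.01 and lower in GM than in PreCFUE by 0.69 (2.70 ± 0.49), and Ccne1 gave 3.58 ± 0.37. Of the 21 megakaryocyte-erythroid transcription factors, 15 had a called negative difference, with Gata2 at -3.46 ± 0.35.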

How the data were processed

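Per the labels and the series' design text, RNA of 2000 purified marrow cells was amplified and hybridized to Affymetrix arrays, and the authors computed the values with RMA. The deposited unit is linear intensity, 1 value per probe set. The labels name no software version, scaling between arrays or sorting gate.

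Log2 was taken with no pseudocount. Of 45101 probe sets, 34958 had 1 gene symbol in the platform annotation, 932 had several and 10143 were not named here. The brightest of a gene's probe sets over all 47 arrays stood for the gene (9012 of 18194 genes had several). A gene was tested if at least 1 group mean exceeded the median of all log2 values. Group means of all 17 groups were fitted with limma 3.58.1 (R 4.3.3), with no covariate. The fitting step was tested on simulated data.

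The members and the 37 gene lists (570 symbols, 499 tested) were chosen with earlier results of these data known. The rule for named genes took the 12 largest rises and 12 largest falls without overlap, the factor, receptor and sorting antigen lists, up to 6 called and 4 uncalled members of each other list by size, and the 6 largest differences of differences each way, and allowed genes of uncertain function to be left out. Chosen after their values were seen were Kdm5d, Uty, Ctsc, Fcnb, Ngp, Clec4a2, Mpeg1, Icam4, Rhd, Ank1, Cldn13, Slc4a1, Alas2, Urod, Fth1, Slc22a4, Abcb10, Gp9, Pfkp, Pfkm and the ribosomal protein genes. The GM and PreCFUE pair had been planned as later stages of the same lineages, which the labels do not state. The number of arrays limits the precision.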

Additional observations from a re-analysis of the deposited data

Results flagged for a closer look

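Among the 206 named genes, 17 had 1 MkE array that stood apart from the other 3 (gap over range above Dixon's critical value for 4 arrays), and chance alone gives about 1 in 20 groups. MkE replicate 3 stood apart in 8 of them. It read 11.02 for Bcl11a (others 10.58 to 10.65), 10.36 for Mycn (9.20 to 9.39), 4.03 for Csf3r (3.63 to 3.68) and 8.05 for Kel (7.03 to 7.17). It also read 8.45 for Icam4 (7.52 to 7.60), 10.89 for Gclm (10.36 to 10.39), 7.47 for Vwf (6.79 to 6.90) and, as the lowest array, 5.10 for Gda (5.74 to 5.81). This array also had the highest upper quartile of intensity of the 7 (75.7). MkE replicate 1 stood apart for Ighm (9.26, others 3.31 to 4.31), Tal1 (9.63, others 9.27 to 9.32), Fth1 (11.29, others 11.07 to 11.09), Chdh (3.54, others 3.34 to 3.37) and Bex6 (3.69, others 3.07 to 3.16). MkE replicate 2 did so for Emb (5.02, others 3.92 to 4.03), Cebpb (4.47, others 4.01 to 4.09) and Gp9 (6.41, others 6.14 to 6.17), and MkE replicate 4 for Gadd45a (7.52, others 6.70 to 6.84).

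The GMP minus MkE difference exceeded the GM minus PreCFUE difference by 6.05 for Eif2s3y, 5.93 for Sgms2, 5.89 for Gda, 5.51 for Mgam, 5.28 for Sphk1 and 5.08 for Prom1. It was lower by the log2 values of -8.88 for Ctla2a, -8.45 for H2-Ob, -7.58 for Mycn, -7.52 for Meis1, -7.50 for Ctla2b and -7.21 for Dntt. These 12 were taken as the largest among genes whose difference of differences had already passed limma's test, so their passing is no further result.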

How the results depend on the processing

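The counts of genes called higher and lower were within 1.5 times of 1223 and 947 under all 12 alternatives planned for the processing and when any 1 array was left out (1114 to 1341 higher, 847 to 972 lower). With the mean of all probe sets, 929 and 676 genes were called, of which 865 and 640 were also called with the brightest. Calls lost with this mean included those of Jak2 (-0.71), Ank1 (-0.615), Cdc25a (0.60), Cdkn1b (-0.92), Abcb10 (0.65) and Tnfrsf1b (0.52). A term for the Xist and Eif2s3y class, added after the data were seen, gave 2399 higher and 1236 lower, kept 872 and 567 of the first calls, and raised the share of calls that were higher from 56.4 to 66.0%. It gave 3612 differences of differences in place of 2364. The term's contrast of Eif2s3y with Xist arrays rests on the 4 PreB arrays, since no other group holds arrays of each of these classes. GMP and MkE share no class, and the planned block within shared classes could not be run.

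Under the term for sex class, the log2 difference changed sign to -1.32 for Eif2s3y, -1.47 for Kdm5d, -0.26 for Cebpb, -0.27 for Bcl6, -0.84 for Nfil3, -0.94 for Runx1, -0.74 for Csf2rb2, -0.066 for Il6ra, -0.16 for Tnfrsf1b, -0.29 for Flt3, -3.55 for S100a8, -4.43 for S100a9, -0.13 for Mpeg1, -1.39 for Cd14, -1.95 for Alox5ap, -0.17 for Procr, -1.02 for Gzmb, -2.00 for Hoxa9, 4.25 for Alas2, 0.048 for Urod and 0.58 for Cdkn2d. The same term called 9 named genes that kept their sign and were not called without it (Spi1, Myb, Kit, Ngp, Pf4, Dntt, Cyba, Rac1 and Rac2). S100a9 (adjusted p = 0.045), Hoxa9 (adjusted p = 8.4e-05) and Alas2 (adjusted p = 0.00028), which changed sign, were also called by limma with the term and not without it. These changes in the log2 difference come from the difference between the PreB arrays with Eif2s3y and those with Xist. They do not describe the GMP or MkE arrays, on all of which Alas2 was dim. The cause of the difference among PreB arrays was not tested. With the mean of probe sets, Fli1 was -0.18 and Runx1 -0.043, and quantile normalization gave -0.0052 for Runx1. With each array left out in turn, Runx1 ran from -0.046 to 0.17, and Ngp from -0.60 to 0.18, the last without MkE replicate 1.

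The labels do not say that replicate numbers pair the arrays. Between GMP and MkE arrays of the same number, deviations from the group means correlated at -0.28, -0.01 and -0.25. Arrays of different numbers were not compared in this way, so these values do not settle whether arrays were paired. With the replicate block, 1235 genes were called higher and 991 lower, and Ngp (0.61), Slc4a1 (-0.014) and Rac2 (-0.080) changed sign.

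Amplified RNA of 2000 cells and an array background near the median of all values limit what can be read from dim genes. With intensities under 16 set to 16, Nfil3 (0.32), Pglyrp1 (0.81), Slc22a4 (0.93), Prg2 (0.92), Cldn13 (-0.996), Cxcr4 (adjusted p = 0.097) and Pbx3 (adjusted p = 0.071) lost their calls.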

Other observations

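Ribosomal protein genes, chosen after their values were seen, fell in 7 of 44 tested and rose in 0 (median -0.31, range -4.05 to 0.58), where 6.79% of all genes tested fell. Rps15, a protein of the small subunit, read 7.91, 7.74 and 7.73 in GMP and 12.32, 11.94, 11.20 and 11.92 in MkE (-4.05 ± 0.44, 16.6-fold lower, adjusted p = 1.4e-09). The GMP arrays were the lowest of the 17 groups for Rps15 and did not overlap with MkE. Rps19, whose loss causes an inherited failure of red cell production in people, fell by 1.69, and Fau, which encodes a ribosomal protein fused to a ubiquitin-like protein, fell by 2.62. The calls of Rps19 and Fau were lost under the term for sex class.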
